A study of Mus musculus with 4 samples.

Results

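Fatty acid elongases and desaturases are the enzymes that lengthen a fatty acid by carbon pairs and place double bonds in it, and 9 of their genes were described here by chromatin accessibility in mouse inguinal white adipose tissue (iWAT). The members were 5 elongase genes, Elovl1, Elovl3, Elovl4, Elovl5 and Elovl7, the stearoyl-CoA desaturase gene Scd2, and 3 fatty acid desaturase genes, Fads1, Fads2 and Fads3. A peak, a stretch of open chromatin, counted for a gene when it lay on the gene body or within 2000 bases upstream of it in the mouse build mm10, and the matrix entries of a gene's peaks were summed per mouse and annotated cluster of nuclei. By this rule all 9 members had peaks, 60 in all, of 17196 protein-coding genes with at least 1 peak.

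Single-nucleus ATAC-seq, which marks open chromatin by the insertions of a transposase in single nuclei, was run on whole iWAT of male C57BL/6J mice aged 8 weeks, and all groups shared strain, age and a stay at 22 °C before the intervention. The groups held 3 mice each: untreated mice at 22 °C (day0RT), mice kept at 6.5 °C for 1, 3 or 7 days (day1C, day3C and day7C), and mice given CL-316,243 (CL), a selective agonist of the β3-adrenergic receptor, at 1 mg/kg for 1, 3 or 7 days (day1CL, day3CL and day7CL). Per the study, CL was given at 22 °C, so the CL and cold groups differed in temperature as well as in the drug. Mouse, group and cluster of each nucleus came from the deposited annotation, which held 32552 nuclei of 21 mice in 12 clusters. Of these nuclei, 5935 were labelled white and 1069 beige adipocytes.

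Each mouse gave 1111 to 2021 nuclei and 1340376 to 6916698 entries, an entry being 1 nucleus with reads in 1 peak. The median per adipocyte nucleus was 1941 entries in day0RT, 1723, 3489.5 and 2626 in day1C, day3C and day7C, and 1496, 3012.5 and 3546 in day1CL, day3CL and day7CL. The groups of 3 and 7 days were thus deeper than day0RT and those of 1 day shallower. The thinnest adipocyte library, mouse 1 of day1CL, had 29 adipocyte nuclei, against 68 in mouse 2 and 654 in mouse 3 of that group. Of 28031 distinct barcodes, 4218 occurred in more than 1 mouse, on 8739 nuclei. The adipocyte marker list was highest in the clusters labelled white and beige, at 1812 and 1787 summed CPM (counts per 1000000 entries on genes in the library). This list therefore does not separate white from beige. The beige adipocyte list was highest in beige, at 1413 summed CPM against 773 in white. The smooth muscle list was highest in the cluster labelled APC2, a progenitor label, and the skeletal muscle list in the cluster labelled VSMC, a vascular smooth muscle label, so these names are used as labels only.

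An elongation cycle in the endoplasmic reticulum starts with an ELOVL enzyme, which joins an activated fatty acid to malonyl-CoA, and is completed by a reductase, a dehydratase and a second reductase that the ELOVL enzymes share. Stearoyl-CoA desaturases make monounsaturated fatty acids such as oleic acid, while FADS1 and FADS2 work in alternation with ELOVL5 on the essential fatty acids to give arachidonic acid and the long omega-3 fatty acids. In brown and beige fat Elovl3 is known as a gene that is switched on by cold.

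Fads1, Fads2 and Fads3 are neighbours on chromosome 19, Fads3 at chr19:10041569-10060110 and Fads1 at chr19:10182888-10196877 on the plus strand and Fads2 between them at chr19:10062765-10101746 on the minus strand. Scd2 lies at chr19:44293674-44306864, Elovl3 at chr19:46131897-46135694, Elovl5 at chr9:77917364-77984519, Elovl1 at chr4:118428093-118432953 and Elovl7 at chr13:108214404-108285683, all on the plus strand, and Elovl4 at chr9:83778692-83806277 on the minus strand. Elovl5 had 24 of the 60 peaks and Elovl1 and Elovl3 had 2 each. One of the 2 Elovl3 peaks also counted for the neighbouring gene Pitx3, so the Elovl3 values are uncertain to that extent. This shared peak held 623 of the 902 Elovl3 counts in adipocytes (69.1%).

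Promoter and peak sequences are shown for genes that the comparisons of beige with white adipocytes and of the treated groups turn on, with matches to 5 motifs in capitals. Promoters come from RefSeq on GRCm38.p6, the assembly of mm10, and run from 250 bases before to 50 after the start in that source. That start can differ from the gene start used for the peaks. For Fads2 the window, chr19:10101454-10101753, lies mostly inside the gene, which starts at 10101746. Little of the sequence upstream of this start was therefore searched. Promoter entries were matched for Elovl1, Elovl4, Elovl5, Elovl7, Fads2 and Fads3. The windows of peaks are the central 300 bases, read from the same assembly on the plus strand, with the peak coordinates as deposited. The motifs, searched on both strands, were the SREBP site TCACNCCAC, the NF-Y box CCAAT, the nuclear receptor hexamer AGGTCA, the ESRR site TCAAGGTCA (which holds that hexamer within it) and the C/EBP site TTGCNNAA.
Elovl5 promoter, chr9:77917115-77917414, plus strand: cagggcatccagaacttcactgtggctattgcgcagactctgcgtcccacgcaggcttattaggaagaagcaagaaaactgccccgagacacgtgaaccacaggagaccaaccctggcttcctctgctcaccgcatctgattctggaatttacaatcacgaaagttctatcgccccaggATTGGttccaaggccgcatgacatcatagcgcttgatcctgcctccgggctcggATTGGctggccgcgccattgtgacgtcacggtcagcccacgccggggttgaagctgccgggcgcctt
Fads3 promoter, chr19:10041298-10041597, plus strand: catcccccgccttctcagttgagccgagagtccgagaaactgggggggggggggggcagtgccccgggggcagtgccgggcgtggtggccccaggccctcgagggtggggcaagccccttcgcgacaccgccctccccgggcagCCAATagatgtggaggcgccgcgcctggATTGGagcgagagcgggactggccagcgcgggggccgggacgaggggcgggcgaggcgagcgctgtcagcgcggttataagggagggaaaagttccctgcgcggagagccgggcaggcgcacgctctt
Fads2 promoter, chr19:10101454-10101753, minus strand: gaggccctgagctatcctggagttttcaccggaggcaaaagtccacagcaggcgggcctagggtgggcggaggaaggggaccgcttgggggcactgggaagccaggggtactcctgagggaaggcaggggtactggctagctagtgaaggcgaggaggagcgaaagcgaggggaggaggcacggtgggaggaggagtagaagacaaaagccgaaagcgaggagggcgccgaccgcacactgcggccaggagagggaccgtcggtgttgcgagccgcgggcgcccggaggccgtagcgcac
Elovl5 intronic peak 37787 bases past the start, chr9:77955002-77955301: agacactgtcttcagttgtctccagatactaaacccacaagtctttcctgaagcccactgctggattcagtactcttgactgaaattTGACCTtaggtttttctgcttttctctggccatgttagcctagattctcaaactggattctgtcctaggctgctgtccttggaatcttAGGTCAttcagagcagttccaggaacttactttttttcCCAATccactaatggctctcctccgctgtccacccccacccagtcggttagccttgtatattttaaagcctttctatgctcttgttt
Scd2 intronic peak 2274 bases past the start, chr19:44295799-44296098: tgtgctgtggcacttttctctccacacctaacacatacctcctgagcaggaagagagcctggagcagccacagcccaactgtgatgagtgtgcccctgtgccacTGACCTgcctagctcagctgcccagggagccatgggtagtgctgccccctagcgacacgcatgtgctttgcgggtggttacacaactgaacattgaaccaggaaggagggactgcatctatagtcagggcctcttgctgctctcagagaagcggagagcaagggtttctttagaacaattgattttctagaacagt
Fads1 intronic peak 5638 bases past the start, chr19:10188377-10188676: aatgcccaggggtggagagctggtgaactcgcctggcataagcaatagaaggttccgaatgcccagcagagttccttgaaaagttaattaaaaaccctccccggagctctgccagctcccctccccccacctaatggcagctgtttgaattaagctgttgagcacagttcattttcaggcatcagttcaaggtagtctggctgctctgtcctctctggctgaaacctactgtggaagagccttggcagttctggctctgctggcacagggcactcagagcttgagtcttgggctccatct
The Elovl5 and Fads3 promoters each held 2 NF-Y boxes, a motif present in 37.4% of 32851 promoters of this length. The Elovl5 intronic window held 2 hexamers and 1 NF-Y box, and the Scd2 window 1 hexamer. Among windows of the same length at all 189598 peaks, 21.0% held the hexamer and 33.6% the NF-Y box. The Fads2 promoter and the Fads1 window held none of the 5 motifs, which says only that these letters are not in these windows. The SREBP site was in none of the windows shown, against 1.24% of promoters and 1.26% of peak windows, the ESRR site likewise (0.423% and 0.632%) and the C/EBP site likewise (10.8% and 18.5%). A match is a description of letters and not evidence of binding.

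The members differed in where in the tissue their chromatin was open. Levels are mean CPM ± SD over mice for the library of each mouse and cluster with at least 10 nuclei, and levels of different genes are compared per kilobase of peak width. The 3 FADS genes had their highest mean in APC2, by less than the SD of the difference from the next cluster. Fads2, the Δ6 desaturase that catalyses the first step on essential fatty acids, had 198 ± 44.4 CPM in APC2 (n = 19), 112 ± 66.7 in VEC, the vascular endothelial cluster (n = 15), and 70.5 ± 18.9 in white adipocytes (n = 21), against 5.98 ± 5.13 in CD4 T cells (n = 20). In 6 of the 12 clusters every library lay below the lowest APC2 library for Fads2. Fads3, a FADS family enzyme known for desaturating sphingoid bases, was highest in APC2 (115 ± 39.8 CPM) and white adipocytes (105 ± 23.3 CPM) and lowest in the 3 T cell clusters (4.89 to 5.09 CPM). In 6 clusters, beige adipocytes included, every library lay below the lowest white adipocyte library for Fads3. Fads1, the Δ5 desaturase, followed the same top cluster (98.0 ± 56.3 CPM in APC2) but was lowest in B cells (15.5 ± 6.15 CPM).

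The elongase genes had other orders. Elovl5, which lengthens polyunsaturated fatty acids, was open in every cluster, from 226 ± 47.6 CPM in macrophages to 57.2 ± 55.2 CPM in VSMC. Elovl1, which serves saturated very long chain fatty acids, was highest in APC1, the other progenitor cluster (77.7 ± 53.1 CPM), and stood at 29.9 ± 8.31 CPM in white adipocytes. Elovl3 was highest in beige adipocytes (60.7 ± 26.1 CPM) and lowest in macrophages (10.4 ± 19.5 CPM), where 14 of 21 libraries had no count. Elovl4, known for very long polyunsaturated fatty acids in retina and brain, was also highest in beige adipocytes but low throughout (22.0 ± 15.4 CPM there and 13.0 ± 5.22 CPM in white adipocytes). Elovl7, an elongase of saturated and monounsaturated acids, was highest in CD8 T cells (70.5 ± 20.0 CPM) and lowest in APC1 (8.43 ± 13.5 CPM). Scd2 was also highest in CD8 T cells (99.6 ± 24.4 CPM), with white (56.3 ± 22.5 CPM) and beige adipocytes (55.0 ± 28.9 CPM) next to last in its order, above VSMC alone (31.1 ± 33.8 CPM).

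These orders were not sharp between neighbours. Of 99 pairs of clusters next to each other in the orders of the 9 genes, 0 had a mean difference within mice larger than the SD of that difference. Clusters with few nuclei gave wide spreads, VSMC with 283 nuclei and VEC with 351 in particular. Zero counts in such libraries mark the counting limit. In mouse 1 of day1CL, for example, a count of 3 in the adipocyte library equals 61.4 CPM.

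**Figure D1:**
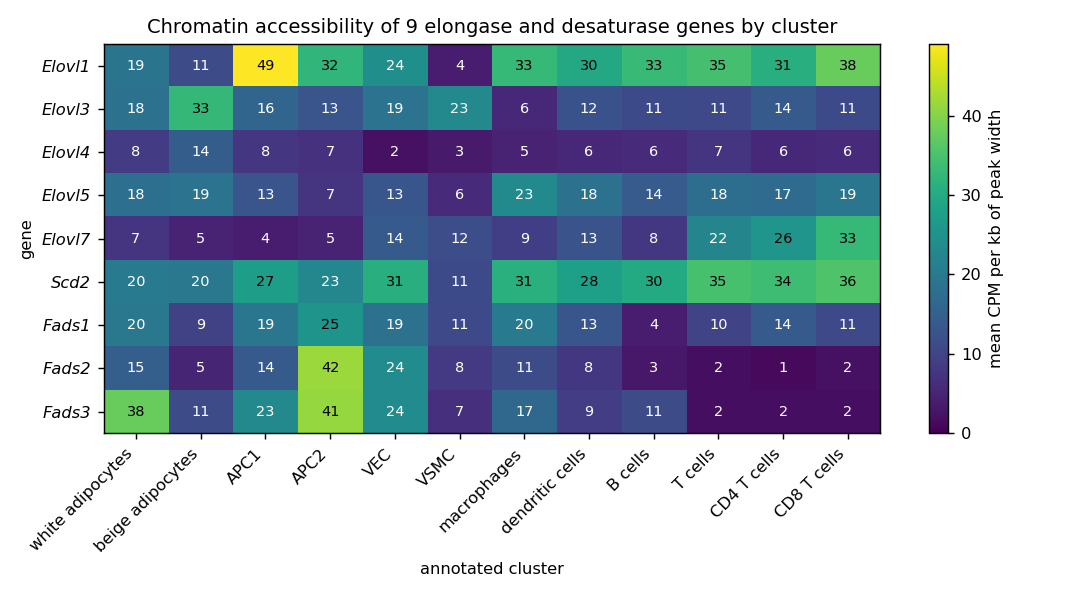
Mean CPM per kilobase of peak width of each member (rows) in each annotated cluster (columns), averaged over mice. Elovl1 in APC1 (49.0) was the highest entry, Fads2 and Fads3 were high in APC2 (41.7 and 41.4) and near 2 or below in the 3 T cell clusters, and Elovl3 was highest in beige adipocytes (32.7).

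Per kilobase, the highest member in white adipocytes was Fads3 (37.6 CPM per kb) and in beige adipocytes Elovl3 (32.7 CPM per kb). Over the 12 cluster means on the log2(CPM + 1) scale, the neighbours Fads2 and Fads3 had the highest correlation of any pair of members (Pearson r = 0.91), ahead of Elovl1 and Scd2 (r = 0.89), while Elovl7 and Fads3 had the lowest (r = -0.83). These describe 12 points that share libraries, depth and annotation. Among 14429 genes searched, the closest in pattern over the same clusters were Tuba1b for Elovl1 (r = 0.97), Pitx3 for Elovl3 (r = 0.96, with a shared peak), Sod2 for Elovl4 (r = 0.94), Pex7 for Elovl5 (r = 0.91) and Zgpat for Elovl7 (r = 0.94). For the desaturases they were Zfp935 for Scd2 (r = 0.98), Npsr1 for Fads1 (r = 0.93), Cyp7b1 for Fads2 (r = 0.95) and Mcc for Fads3 (r = 0.95).

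Beige and white adipocytes, the comparison that asks how the thermogenic fat cell differs from the storing one, differed most at the FADS genes. Fads1, Fads2 and Fads3 were all less open in beige adipocytes, Fads3 in 19 of 19 mice with both libraries, and Elovl1 was lower as well. Elovl3 was the member that was more open in beige adipocytes. Of the 8 members that passed the filter on low counts, 5 were called at an adjusted p under 0.05, 1 higher and 4 lower. Among all 12770 genes tested, 13.6% were higher and 15.2% lower, and the median log2 difference was 0.01 over all genes and -0.38 over the 8 members. Elovl7 did not pass the filter. The clusters had been drawn from these same counts, so the p-values are not independent of the labels, and the median nucleus held 3087 entries in beige and 2561 in white adipocytes. The beige libraries held 16099 to 556248 entries on genes, and the thinnest, mouse 2 of day0RT, had 12 beige nuclei. A beige value of 0 CPM in a thin library marks the counting limit, and the direction in such a mouse rests on few counts.

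Elovl3, an elongase of saturated and monounsaturated acids, had a lowest, median and highest library of 0, 67.0 and 103 CPM in beige adipocytes, against 20.8, 34.2 and 58.0 CPM in white adipocytes. The ranges overlapped, but beige was the higher in 16 of 19 mice. The white ranges here and below also include mice 1 and 2 of day1CL, which had too few beige nuclei for a library (6 and 5). White libraries of day1CL held the highest Elovl3 value and the lowest Fads1 and Fads2 values. The fitted log2 difference of Elovl3 was 0.96 ± 0.11 (SE, adjusted p = 1.01e-12, edgeR's quasi-likelihood test). Both Elovl3 peaks were called, the one at the start with a log2 difference of 1.05 ± 0.22 (adjusted p = 3.68e-05) and the downstream one shared with Pitx3 with 0.76 ± 0.14 (adjusted p = 1.63e-06). Counting unshared peaks only, the gene's log2 difference was 1.16 (adjusted p = 9.59e-06).

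Fads3 had 0, 35.9 and 59.7 CPM as lowest, median and highest beige library and 75.3, 97.3 and 153 CPM as the same values in white adipocytes, with no overlap. Its log2 difference was -1.50 ± 0.12 (adjusted p = 1.31e-20). For Fads2 the beige libraries gave 0, 24.6 and 56.9 CPM and the white libraries 31.8, 72.2 and 99.7 CPM, and these ranges overlapped. Beige was nevertheless the lower in 19 of 19 mice, with a log2 difference of -1.39 ± 0.15 (adjusted p = 1.86e-13). Fads1 ranged from 0 to 74.5 CPM around a median of 37.5 in beige, and from 0 to 116 CPM around a median of 81.0 in white adipocytes. It was lower in 18 of 19 mice (log2 difference -1.02 ± 0.13, adjusted p = 1.96e-11).

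Elovl1 differed less, with means of 17.7 ± 17.8 CPM (beige) and 28.0 ± 5.01 CPM (white) in the same 19 mice. It was lower in 15 of 19 (log2 difference -0.73 ± 0.20, adjusted p = 0.00199). Elovl4 was higher in beige in 13 of 19 mice and missed the threshold (0.47 ± 0.20, adjusted p = 0.064). Elovl5 and Scd2 showed little difference, with log2 values of -0.03 ± 0.08 (adjusted p = 0.808) and 0.00 ± 0.12 (adjusted p = 0.992).

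**Figure D2:**
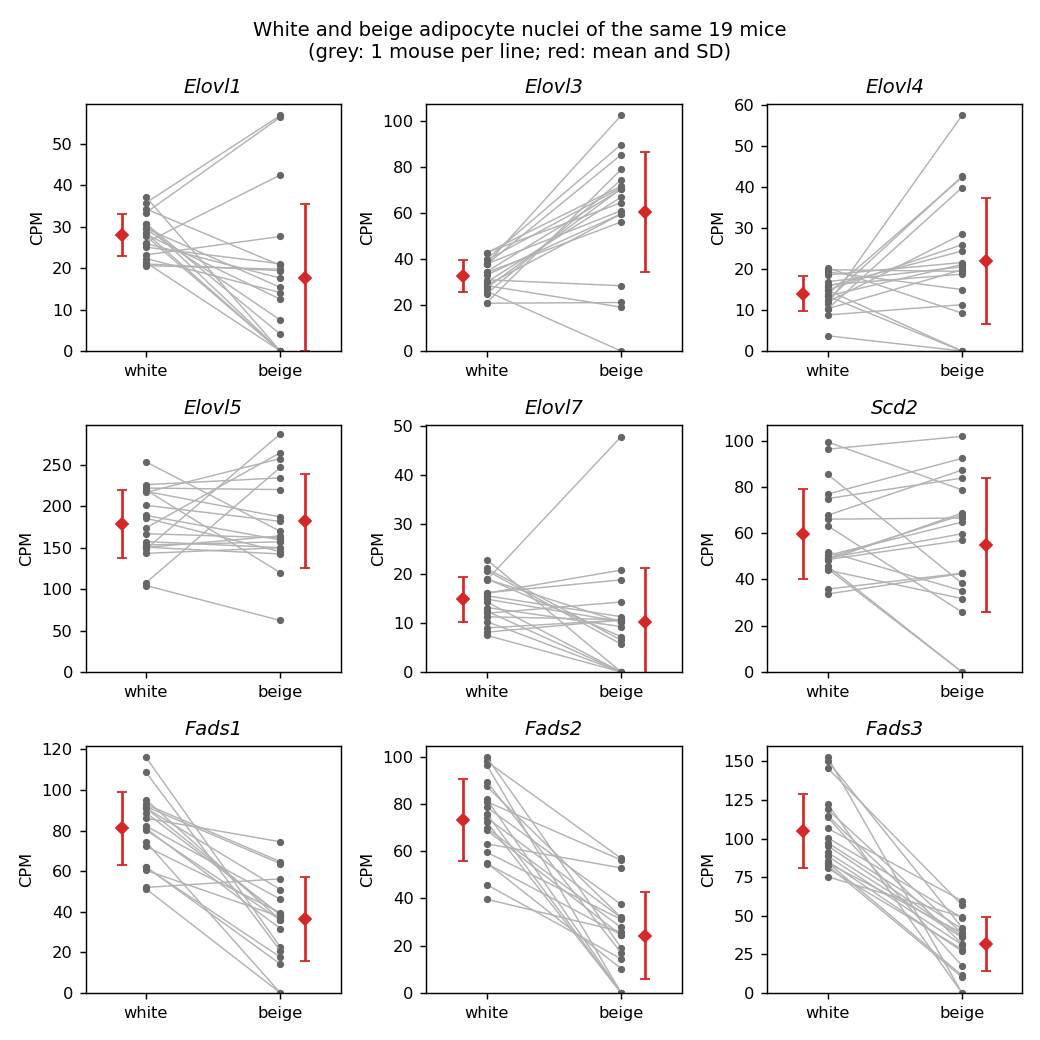
CPM of each member in white and beige adipocyte nuclei, with 1 grey line for each of 19 mice and the mean and SD in red. The lines of Fads2 and Fads3 fall in 19 of 19 mice, those of Elovl3 rise in 16, and those of Elovl5 go either way (8 higher, 11 lower).

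At single peaks, 11 of the members' 60 peaks passed the filter in this comparison and 8 were called, 2 higher and 6 lower, beside 12.8% higher and 14.4% lower of all 24854 peaks tested. A peak can pass the filter through the population where it is high, so these counts describe the peaks that passed and not all 60. A peak in the 3′ UTR of Fads2 lay at chr19:10063435-10064164, 37946 bases from the start. It had 379 counts in white nuclei (6.39% of them) and 9 counts in beige nuclei (0.842%), a log2 difference of -3.06 ± 0.36 (adjusted p = 7.46e-15), and passed the filter through the white libraries. The Fads1 intronic peak whose window is printed above differed by -1.93 ± 0.25 (adjusted p = 5.33e-12), and the peak at the Fads1 start by -1.04 ± 0.21 (adjusted p = 2.09e-05). The Fads3 start peak differed by -1.78 ± 0.21 (adjusted p = 1.79e-14) and an intronic Fads3 peak 2290 bases past the start by -0.95 ± 0.19 (adjusted p = 9.46e-06). Among the FADS peaks that passed the filter, the called ones lay at the Fads1 and Fads3 starts, in an intron of each, and in the Fads2 3′ UTR. The Fads2 start peak did not pass the filter. Where along a gene the difference lies cannot be read from peaks filtered in this way. At the Elovl5 start the log2 difference was 0.07 ± 0.14 (adjusted p = 0.771).

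**Figure D3:**
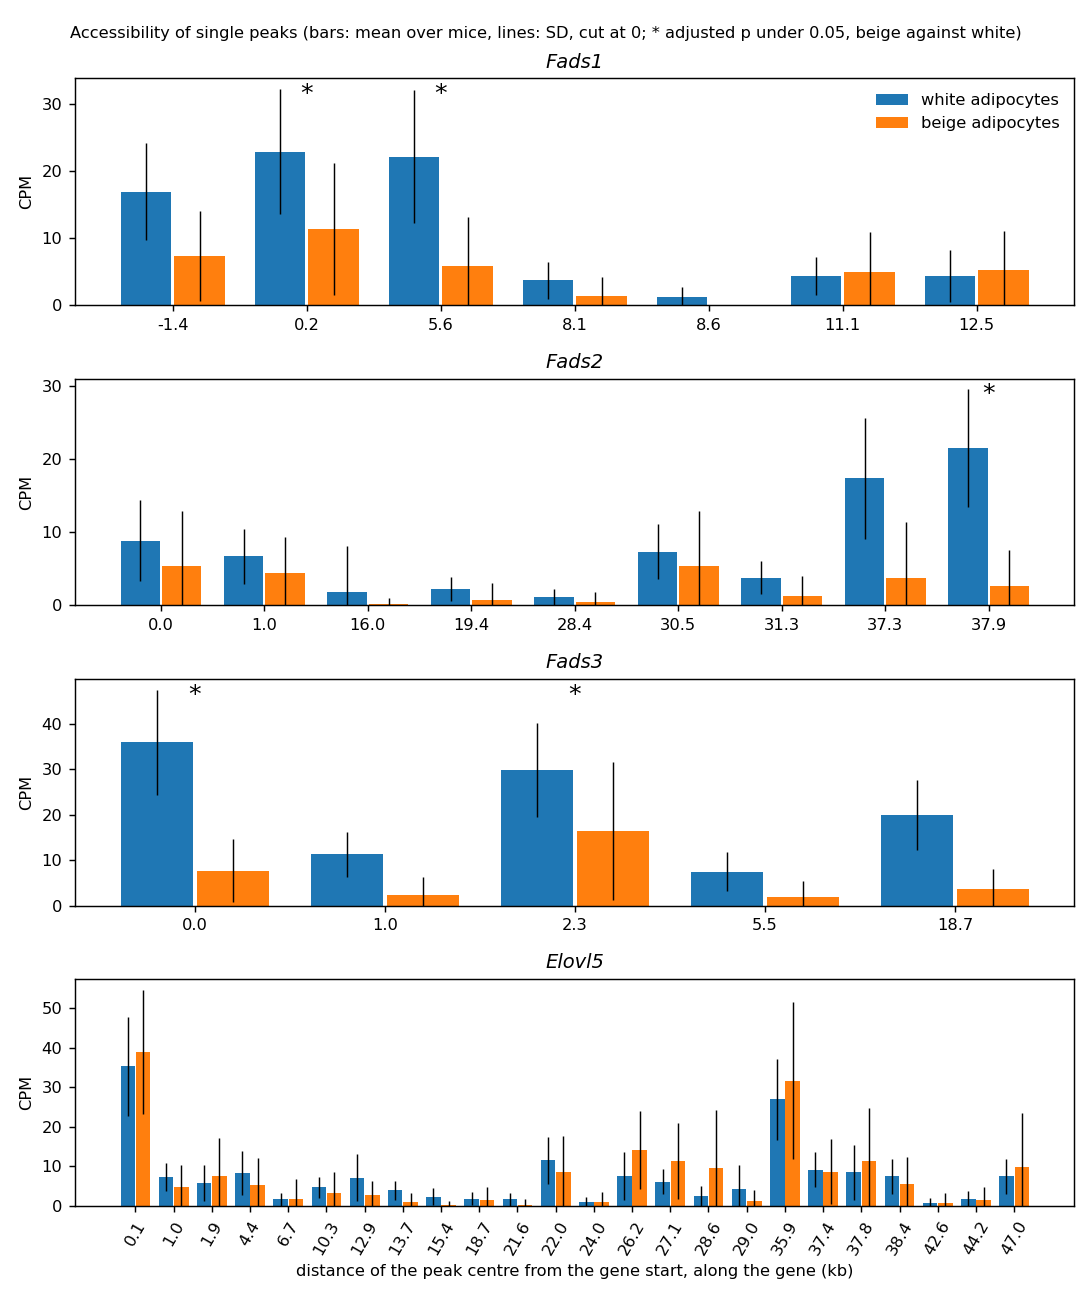
Mean CPM of each peak in white (blue) and beige (orange) adipocytes, ordered by distance from the gene start in kb, with SD over mice as lines and * for an adjusted p under 0.05 among the peaks that passed the filter (7 of the 45 drawn). The starred peaks of Fads1, Fads2 and Fads3 are lower in beige, and the 2 tested Elovl5 peaks, at the start and 35936 bases past it, carry no star.

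Cold and CL were then compared with day 0 in adipocytes, white and beige nuclei summed per mouse, to ask how the members move as the tissue turns beige. Elovl5 and Scd2 gained accessibility and Fads3 and Fads2 lost it, at 1 or more time points. Over the 6 treated groups and 9 members, 9 of 54 tests were called, 5 higher and 4 lower. In these sums a loss of accessibility per nucleus and a shift toward nuclei with less of it cannot be told apart, and the beige share of adipocyte nuclei moved with the treatment: 9.22 ± 2.62% in day0RT (SD, n = 3), 10.4, 12.2 and 29.4% in day1C, day3C and day7C, and 14.2, 12.8 and 20.1% in day1CL, day3CL and day7CL. The beige adipocyte marker list of 6 genes also moved, from 706 to 891 summed CPM in the day0RT mice to 979 to 1121 in day7C. The adipocyte marker list of 6 genes went from 1821 to 2151 summed CPM in day0RT to 1553 to 1723 in day7C, 1514 to 1759 in day1CL and 1613 to 1754 in day3CL. The smooth muscle list of 5 genes went from 144 to 155 summed CPM in day0RT to 162 to 179 in day7C, 193 to 223 in day3CL and 181 to 192 in day7CL. The B cell list of 5 genes went from 112 to 160 summed CPM in day0RT to 88.7 to 101 in day7C and 67.4 to 81.9 in day1CL. The T cell list of 6 genes went from 16.2 to 28.6 in day0RT to 10.3 to 10.7 in day7C. The dendritic, macrophage and skeletal muscle lists also separated from day0RT in some groups. The part of these lists in the results was not tested. Tests on white nuclei alone are therefore given below for the called results, and levels in white nuclei for Fads1 and Elovl3. All 6 contrasts share the 3 day0RT mice. The groups of 3 and 7 days also held more entries per adipocyte nucleus than day0RT, as given above.

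After 1 day of cold 0 of 9 members were called by edgeR, beside 0.340% of all 14429 genes tested, and DESeq2 called 0 as well. Elovl5 was the 1 member with an unadjusted p under 0.05 (log2 fold change 0.53, adjusted p = 0.134). After 3 days of cold 1 of 9 was called (Elovl5, beside 1.68% of all genes), and after 7 days 3 of 9 (Elovl5 and Scd2 higher, Fads3 lower, beside 5.08%). With CL, 1 of 9 was called at day 1 (Fads3, lower, beside 2.61%), 1 of 9 at day 3 (Scd2, higher, beside 4.77%) and 3 of 9 at day 7 (Elovl5 higher, Fads2 and Fads3 lower, beside 7.81%).

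Elovl5 had 149, 102 and 117 CPM in the day0RT mice. The values were 183, 166 and 186 CPM in day1C, 213, 242 and 227 in day3C and 232, 154 and 173 in day7C. All cold mice lay above all day0RT mice, and day3C was the highest group. The log2 fold change was 0.85 ± 0.14 at day3C (adjusted p = 0.000131) and 0.60 ± 0.15 at day7C (adjusted p = 0.00642).

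With CL, Elovl5 had 164, 157 and 166 CPM at day 1, 201, 157 and 153 at day 3 and 197, 221 and 145 at day 7. The CL mice were above day0RT except for 1 day7CL mouse, which lay within the day0RT range. The log2 fold change passed at day7CL (0.64 ± 0.14, adjusted p = 0.00174) and not at day1CL (0.39 ± 0.17, adjusted p = 0.236) or day3CL (0.41 ± 0.15, adjusted p = 0.0865). In white nuclei alone it was 0.94 at day3C, 0.64 at day7C and 0.71 at day7CL (adjusted p of 4.09e-05, 0.0174 and 0.00134). Over promoter peaks alone none of the 3 calls held (0.56, 0.28 and 0.46, adjusted p of 0.20, 0.655 and 0.273). The day7C call was lost without mouse 1 of day7C (adjusted p = 0.158) or mouse 3 of day0RT (adjusted p = 0.109), and the day7CL call without mouse 3 of day0RT (adjusted p = 0.0558).

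Scd2, the stearoyl-CoA desaturase isoform known from brain and adipose tissue, had 36.8, 42.1 and 42.8 CPM in day0RT. In cold it had 42.8, 79.3 and 50.2 CPM at day 1, 49.8, 51.7 and 34.6 at day 3, and 98.4, 73.4 and 54.8 at day 7. The day7C mice were all above day0RT, with a log2 fold change of 0.85 ± 0.22 (adjusted p = 0.0106). White nuclei alone gave 0.69 (adjusted p = 0.124), and nuclei with at least 2000 entries gave 0.72 (adjusted p = 0.056). The call was also lost over promoter peaks alone (adjusted p = 0.304) and without mouse 1 of day7C, the highest of the group (adjusted p = 0.192), or mouse 1 or mouse 3 of day0RT (adjusted p of 0.0606 and 0.0702).

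With CL, Scd2 had no count in mouse 1 of day1CL and 50.6 and 48.6 CPM in the other mice of that group. It had 76.5, 97.5 and 77.8 CPM at day 3 and 66.1, 57.2 and 53.3 at day 7. The day3CL mice stood clear of all day0RT mice, and day7CL lay between. The log2 fold change was 1.12 ± 0.20 at day3CL (adjusted p = 8.69e-05), 0.61 ± 0.22 at day7CL (adjusted p = 0.0647) and 0.20 ± 0.27 at day1CL (adjusted p = 0.795). At day3CL white nuclei alone gave 1.07 (adjusted p = 0.000237).

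Fads3 had 133, 144 and 108 CPM in day0RT. In cold it had 140, 107 and 102 CPM at day 1, 107, 74.6 and 106 at day 3, and 60.9, 61.4 and 80.2 at day 7. The day3C and day7C mice lay below all day0RT mice, and only day7C passed the test, with a log2 fold change of -0.82 ± 0.16 (adjusted p = 0.000274). In white nuclei alone this was -0.56 (adjusted p = 0.0507), from 137 ± 20.7 CPM in day0RT to 86.9 ± 9.06 CPM in day7C.

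With CL, Fads3 had 81.9, 84.3 and 70.0 CPM at day 1, 80.9, 95.8 and 91.8 at day 3 and 74.5, 76.9 and 74.6 at day 7. Every CL mouse lay below every day0RT mouse. The log2 fold change was -0.77 ± 0.18 at day1CL (adjusted p = 0.00738), -0.38 ± 0.14 at day3CL (adjusted p = 0.099) and -0.69 ± 0.15 at day7CL (adjusted p = 0.00107). White nuclei alone gave -0.74 at day1CL (adjusted p = 0.0184) and -0.60 at day7CL (adjusted p = 0.00733). The day1CL call rests on mouse 3 of that group, without which it was -0.59 (adjusted p = 0.681), while without the thin library of mouse 1 it was -0.77 (adjusted p = 0.00982).

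Fads2 had 92.0, 77.3 and 62.4 CPM in day0RT and 39.9, 37.4 and 68.5 CPM in day7CL, where 2 of 3 mice lay below the day0RT range. The log2 fold change was -0.74 ± 0.19 (adjusted p = 0.00607), and -0.63 in white nuclei alone (adjusted p = 0.0352). The call was lost without mouse 1 of day7CL (adjusted p = 0.218) or mouse 1 of day0RT (adjusted p = 0.0997), with DESeq2 (adjusted p = 0.0797) and over promoter peaks alone (-0.22, adjusted p = 0.884). In day7C the mice had 62.0, 41.9 and 50.8 CPM (log2 fold change -0.50 ± 0.19, adjusted p = 0.121).

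Fads1 was called in none of the 6 groups in white and beige nuclei together. Its mice lay at 55.2, 70.2 and 58.9 CPM in day0RT and at 81.4, 104 and 84.9 in day3C, above the day0RT range, with a log2 fold change of 0.52 ± 0.18 (adjusted p = 0.114). The day7C (75.9 to 81.75 CPM) and day3CL mice (72.2 to 89.3 CPM) also lay above it (0.40 ± 0.19 and 0.51 ± 0.17, adjusted p of 0.235 and 0.0755). Day1C, day1CL and day7CL overlapped day0RT. In white nuclei alone Fads1 had 61.8 to 74.5 CPM in day0RT and lay above it in day3C (86.1 to 116 CPM), day7C (91.1 to 109) and day3CL (80.3 to 91.8). There day1CL lay below day0RT (0 to 52.0 CPM), and day1C and day7CL overlapped it. In white and beige nuclei together, the sign for Fads1 in day3C was opposite to that of its neighbours Fads2 (-0.15) and Fads3 (-0.28). None of these 3 values passed the test. In day7C it was opposite as well (Fads2 -0.50, Fads3 -0.82), and of the 3 genes only Fads3 passed. In day1CL all 3 were negative. Elovl3 had 30.7, 24.6 and 37.0 CPM in day0RT and 43.8, 56.9 and 52.4 in day7C, all above day0RT, with a log2 fold change of 0.62 ± 0.21 (adjusted p = 0.0783). With CL its mice had 38.6 to 44.9 CPM at day 1, 44.2 to 48.1 at day 3 and 39.6 to 44.7 at day 7, each group above day0RT. The value of mouse 1 of day1CL rests on few counts. The log2 fold changes of 0.25, 0.46 and 0.37 did not pass (adjusted p of 0.718, 0.197 and 0.30). These values include the peak shared with Pitx3. The unshared start peak alone overlapped day0RT (8.18 to 14.05 CPM) in day1CL (11.2 to 40.9), day3CL (11.2 to 19.7) and day7CL (10.7 to 13.5). It lay above day0RT in day7C (15.1 to 17.1 CPM). In white nuclei alone Elovl3 overlapped day0RT (26.1 to 34.6 CPM) in day7C, day1CL and day7CL and lay above it in day3CL (40.1 to 42.9 CPM). Elovl1, Elovl4 and Elovl7 passed in none of the 6 groups, with log2 values from -0.55 to -0.14, 0.26 to 0.64 and -0.21 to 0.66. The Elovl7 mice nevertheless lay above day0RT in day7C, day3CL and day7CL. In day7CL the Elovl4 mice lay above day0RT and the Elovl1 mice below it. How many of all genes separate from day0RT in this way was not counted.

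**Figure D4:**
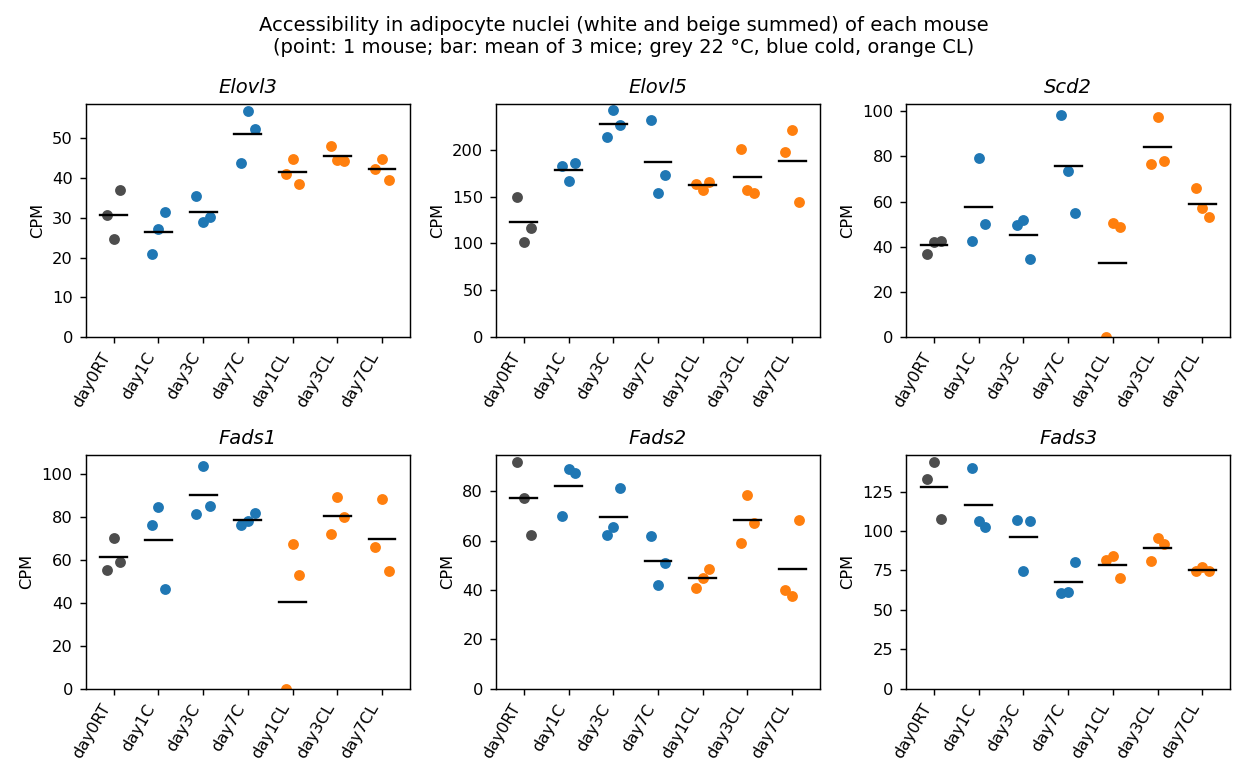
CPM of 6 members in the adipocyte nuclei of each mouse, by group, with the mean of 3 mice as a bar. Every day3C mouse is above the day0RT mice for Elovl5 and every day3CL mouse for Scd2, every CL mouse is below them for Fads3, and the points at 0 for Scd2 and Fads1 are mouse 1 of day1CL.

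Cold and CL were compared directly on the same day, to ask whether the agonist stands in for the cold at these genes. At day 3 CL had more accessibility at Scd2 and less at Elovl5 than cold, and at day 1 less at Fads3. In all, 3 of 27 tests were called. At day 1 this was 1 of 9 members, beside 0.922% of all genes tested, at day 3 it was 2 of 9, beside 1.46%, and at day 7 edgeR called 0 of 9, beside 0.111%. At day 7, 0 members had an unadjusted p under 0.05, and DESeq2 called 0.

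For Scd2 the 3 day3CL mice (76.5 to 97.5 CPM) lay above the 3 day3C mice (34.6 to 51.7 CPM), and the log2 difference was 0.93 ± 0.14 (adjusted p = 9.05e-06). With DESeq2 the adjusted p was 0.0518. For Elovl5 the day3CL mice (153 to 201 CPM) lay below the day3C mice (213 to 242 CPM), with a log2 difference of -0.44 ± 0.11 (adjusted p = 0.0187). This call was lost with DESeq2 (adjusted p = 0.316) and with the replicate number as a block (-0.40, adjusted p = 0.0501), over promoter peaks alone (adjusted p = 0.509), and without mouse 2 or mouse 3 of day3CL (adjusted p of 0.274 and 0.158) or of day3C (adjusted p of 0.0764 and 0.0688). For Fads3 the day1CL mice (70.0 to 84.3 CPM) lay below the day1C mice (102 to 140 CPM), with a log2 difference of -0.75 ± 0.18 (adjusted p = 0.0171). The adjusted p was 0.16 with DESeq2, 0.0519 over promoter peaks alone, 0.0928 in nuclei with at least 2000 entries, 0.789 without mouse 3 of day1CL and 0.354 without mouse 1 of day1C.

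At day 7 the groups were closer, with log2 differences of -0.24 ± 0.16 for Scd2, 0.05 ± 0.12 for Elovl5 and 0.13 ± 0.14 for Fads3. Elovl3 was the other member with a difference in white nuclei alone at day 3 (0.57, adjusted p = 0.0351), while in white and beige nuclei together it was 0.44 ± 0.14 (adjusted p = 0.103).

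**Figure D5:**
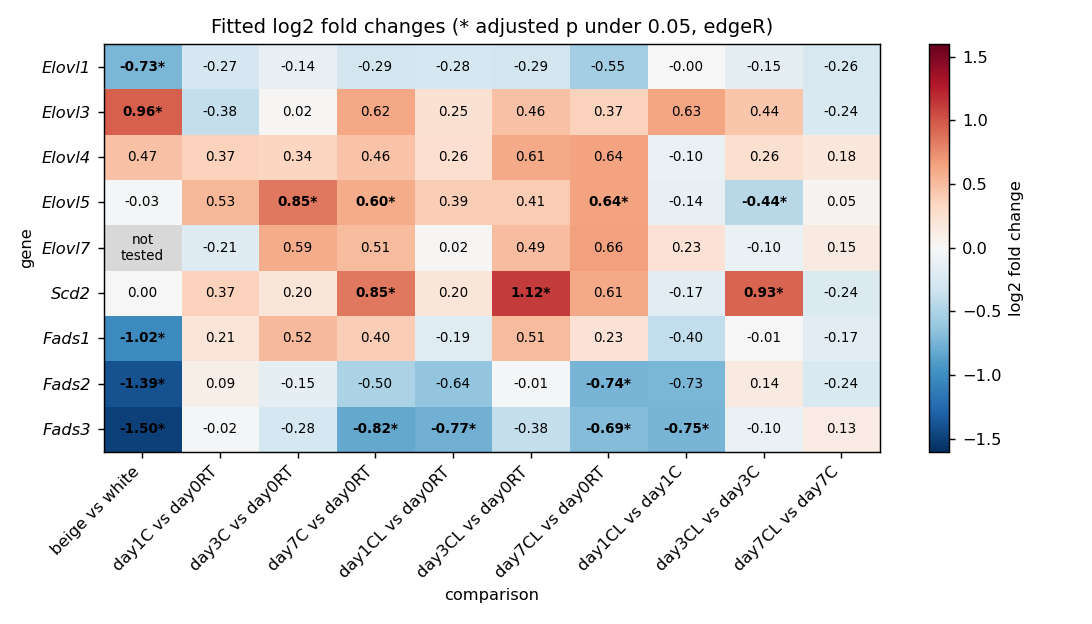
Fitted log2 fold changes of each member (rows) in each comparison (columns), with an adjusted p under 0.05 in edgeR shown in bold with *. Blue marks lower and red higher accessibility. Fads1, Fads2 and Fads3 are all lower in beige adipocytes, whereas against day 0 the calls fall on Elovl5, Scd2, Fads2 and Fads3 only.

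Single peaks of the members were tested over the treatment groups as well. In a test for any difference among the 7 groups, 24 member peaks passed the filter in adipocytes and 12 were called, beside 10.7% of all 47835 peaks tested. Here too a peak can pass the filter through the group where it is high. The counts therefore describe the peaks that passed and not all member peaks, and fewer were called with no filter, as given below. These were 3 peaks each of Elovl5, Scd2 and Fads2, 2 of Fads3 and 1 of Elovl3. The Elovl3 peak was the downstream one shared with Pitx3 (adjusted p = 0.0468), and the Elovl3 start peak was not called (adjusted p = 0.224). The start peak of Elovl5 was not called (adjusted p = 0.434). The 3 called Elovl5 peaks lay in introns, 22018, 26195 and 37787 bases past the start.

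The last of these, printed above, had 0, 0 and 4.62 CPM in day0RT, and 11.6, 22.8 and 26.8 in day3C. It had 9.39, 9.92 and 5.58 CPM in day1C and 10.1, 14.6 and 9.14 in day7CL. All mice of these groups lay above the day0RT mice, as did those of day7C (5.99 to 9.52 CPM) and day3CL (6.18 to 8.75 CPM). Day1CL overlapped day0RT (0 to 7.14 CPM). The highest group was day3C (adjusted p = 0.00056 over the 7 groups). The day0RT values rest on few counts.

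For Scd2 the start peak was called (adjusted p = 4.86e-05), with 26.6, 28.1 and 23.1 CPM in day0RT and 32.8, 55.3 and 42.0 in day3CL. The intronic Scd2 peak with the hexamer had 0, 3.51 and 10.4 CPM in day0RT and 15.3, 15.1 and 17.4 in day3CL (adjusted p = 0.0458 over the 7 groups). The Scd2 peak in the 3′ UTR was called too (adjusted p = 0.000274). For Fads3 the start peak, which spans the printed promoter, had 47.0, 38.6 and 43.9 CPM in day0RT, 15.0, 21.0 and 25.4 in day7C and 21.5, 18.7 and 28.9 in day7CL. Both 7-day groups lay below all day0RT mice (adjusted p = 0.000117 over the 7 groups). Peaks were not tested between single treatment groups, so these p-values do not test the group orders described here. Fads2 was called at its start peak (adjusted p = 0.014) and at the pair of peaks at its far end (adjusted p of 0.0168 and 0.0192). The Fads2 start peak moved both ways, with 5.78 to 10.2 CPM in day0RT, 10.9 to 14.4 in day3CL and 3.05 to 5.20 in day7CL. The far-end pair had lower means in day7C (12.9 and 12.9 CPM) and day7CL (14.2 and 10.6) than in day0RT (25.45 and 22.7). With white nuclei only, 4 member peaks were called: the Fads3, Scd2 and Fads1 start peaks and the Elovl5 intronic peak 22018 bases past the start. The Fads1 start peak was not called in white and beige nuclei together (adjusted p = 0.0673). Other peaks were tested in white nuclei alone and lost their call. Among them were the Fads2 far-end pair (adjusted p of 0.2056 and 0.1865) and the intronic Scd2 peak with the hexamer (adjusted p = 0.122). The Fads3 peak 989 bases past the start (adjusted p = 0.305) and the Elovl3 peak shared with Pitx3 (adjusted p = 0.105) were lost as well. Fewer member peaks passed the filter in that fit. The Elovl5 peaks 26195 and 37787 bases past the start, the Scd2 peak in the 3′ UTR and the Fads2 start peak were not tested there.

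The members were also tested for any difference among the 7 groups in the other clusters. No member was called by edgeR in APC2 (3 tested, beside 0.0991% of all genes), macrophages (2 tested, beside 0%), B cells (8 tested, beside 2.08%), T cells (2 tested, beside 0.0172%), CD4 T cells (5 tested, beside 0.0520%) or CD8 T cells (5 tested, beside 0.125%). In APC1 none of the members passed the filter. DESeq2 called 0 in each of them. The 1 member with an unadjusted p under 0.05 was Elovl5 in B cells (adjusted p = 0.121, edgeR). VEC, VSMC and dendritic cells had too few libraries in some groups and are described by their levels alone.

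The partners of these enzymes were read from a list of 23 other genes of elongation and desaturation, chosen with earlier results known, of which 22 had peaks and 20 were tested in adipocytes. In beige against white adipocytes 3 of 20 were higher (beside 13.6% of all genes), Acsl5 (1.04), which activates fatty acids to CoA esters, Elovl6 (0.89), the elongase of palmitate, and Hsd17b12 (0.36), the first reductase of the cycle. The 2 of 20 lower (beside 15.2%) were Hacd4 (-1.63), a dehydratase of the cycle, and Scd1 (-0.58), the main stearoyl-CoA desaturase of adipose tissue. The log2 median of the 20 was 0.07, beside 0.01 over all genes.

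Against day 0, none of the 20 was called in day1C or day3C (median log2 fold change 0.14 and 0.09). In day7C 4 of 20 were called (beside 5.08% of all genes), all higher, Elovl6 (1.22), Acsl5 (1.13), Hsd17b12 (0.74) and Cyb5b (0.66), a cytochrome b5 of the mitochondrial outer membrane. In day1CL 2 of 20 were called (beside 2.61%), Cyb5b higher (0.85) and Scd1 lower (-0.72).

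In day3CL 8 of 20 were called (beside 4.77%), all higher. They were Scd3 (1.29), another stearoyl-CoA desaturase, Elovl6 (0.87), Scd1 (0.77), Cyb5b (0.70), Acsl5 (0.66), Hacd2 (0.57), a dehydratase of the cycle, Tecr (0.49), its last reductase, and Hsd17b12 (0.47). The median of the 20 was 0.44, beside -0.01 over all genes. In day7CL 5 of 20 were called (beside 7.81%), Elovl6 (0.85), Acsl5 (0.68), Cyb5b (0.63) and Hsd17b12 (0.47) higher and Scd1 lower (-0.49). Of these calls DESeq2 made 4 of 4 in day7C, 1 of 2 in day1CL (Cyb5b), 1 of 8 in day3CL (Elovl6) and 1 of 5 in day7CL (Elovl6). DESeq2 gave Scd3 in day3CL no adjusted p. Of the called genes tested over promoter peaks alone, 2 of 3 held in day7C, 0 of 2 in day1CL, 2 of 5 in day3CL and 1 of 4 in day7CL. In nuclei with at least 2000 entries 4 of 4, 1 of 2, 5 of 8 and 4 of 5 held in the same order. Elovl6 in day7C, day3CL and day7CL, Scd1 in day3CL, and Acsl5 and Hsd17b12 in day7C were called whichever mouse was left out, and each of the other calls was lost without at least 1 mouse. In day3CL, leaving out mouse 2 of day3CL ended 6 of the 8 calls (adjusted p from 0.0638 to 0.131), and leaving out mouse 1, 2 or 3 of day0RT ended 5, 3 and 4 of them (adjusted p up to 0.268, 0.0920 and 0.323). Without mouse 1 or 3 of day3CL 2 calls were lost in each case (adjusted p up to 0.0573 and 0.0531). In day1CL both calls were lost without mouse 3 of day1CL (adjusted p of 0.838 and 0.873) or mouse 3 of day0RT (adjusted p of 0.0927 and 0.266). In day7CL, leaving out mouse 1 of day7CL ended the calls of Acsl5, Cyb5b and Hsd17b12 (adjusted p from 0.0955 to 0.46), mouse 2 that of Scd1 (adjusted p = 0.177), and mouse 1, 2 or 3 of day0RT 1, 2 and 3 of the 5 (adjusted p up to 0.116, 0.0647 and 0.415). In day7C the Cyb5b call was lost without mouse 1 of day7C (adjusted p = 0.117) or mouse 3 of day0RT (adjusted p = 0.182), and in white nuclei alone Acsl5 and Cyb5b were not called (adjusted p of 0.105 and 0.334). All of these contrasts share the day0RT mice.

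In the direct test of CL against cold, Scd1 and Scd2, on the same chromosome, can be read side by side. At day 1 Scd1 was the 1 of 20 called (beside 0.922% of all genes), lower with CL (-1.17), while Scd2 was not called (-0.17). At day 3, 4 of 20 were called (beside 1.46%), all higher with CL, Scd3 (1.02), Scd1 (0.74), Hacd2 (0.53) and Elovl6 (0.43), with Scd2 at 0.93. At day 7 Scd1 was the 1 of 20 called (beside 0.111%), lower with CL (-0.78), and Scd2 was not called (-0.24). DESeq2 called Scd1 on none of these days (adjusted p of 0.0649, 0.315 and 1.00). The Scd1 call was also lost without mouse 3 of day1CL at day 1 (adjusted p = 0.623), without mouse 2 of day3CL at day 3 (adjusted p = 0.0776), and without mouse 1 of day7C or mouse 2 of day7CL at day 7 (adjusted p of 0.113 and 0.0869), and over promoter peaks only at day 7 (adjusted p = 0.586). The Elovl6 call at day 3 held in 6 of 21 fits that left out a mouse and in 2 of 6 other settings, and the Hacd2 call in 4 of 6. Of the called genes at day 3 tested over promoter peaks alone, 1 of 3 held. With library size scaling 3 of 4 held, and in nuclei with at least 2000 entries 3 of 4. DESeq2 called 0 of the 4 at day 3, Scd3 included (adjusted p of 0.743 for Elovl6 and 0.15 for Hacd2). Without mouse 2 of day3CL neither Hacd2 nor Scd3 was called (adjusted p of 0.14 for both), and Scd3 was lost as well without mouse 1 or 2 of day3C or mouse 3 of day3CL (adjusted p from 0.0705 to 0.111).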

How the data were processed

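Nuclei of all mice were sequenced as a pool on 4 lanes. Per the study's methods and labels, the authors aligned reads with Bowtie2 to mm10, filtered them with SAMtools, called peaks with MACS2 on clusters pooled over mice, and clustered nuclei with Signac. The deposited counts are a binary matrix of 189598 peaks by 32552 nuclei, in which 1 marks a nucleus with reads in a peak (0 entries above 1). A matrix of this kind saturates, since repeated reads in a peak count once.

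Peaks were assigned to 21951 protein-coding genes (GENCODE vM21). A peak counted for every gene it touched, and 3.43% counted for 2 or more. Entries were summed per mouse and cluster with at least 10 nuclei. CPM is per 1000000 entries on genes of the library, and intervals between mice cover animals and counting together. Fits used edgeR 4.0.16 in R 4.3.3 (quasi-likelihood, TMM factors, filterByExpr, Benjamini-Hochberg over all genes or peaks tested, threshold 0.05). Beige was compared with white adipocytes with the treatment group as covariate. The 7 groups were fitted together, by 6 contrasts with day 0 and 3 of CL with cold, and the other clusters by 1 test over all groups. Scripts were tested on simulated data. Alternatives were DESeq2 1.42.0, library size scaling, no filter, promoter peaks, unshared peaks, deeper nuclei, other nucleus minimums, white nuclei only, only the compared groups, replicate or mouse blocks and leaving out each mouse.

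The members, the list of other pathway genes, the marker lists and the motifs were chosen with earlier results of these data known. All members are named, other pathway genes where they passed the threshold, and for likeness the genes with the highest correlation. The alternatives for the other pathway genes were added after seeing the data. Same-numbered mice of different groups did not deviate together (r from -0.12 to 0.12 over 63 pairs, 1 of them above 0.1), and the labels do not say what a number marks, so the main fits use no block. The study's methods name 3 batches of experiments, and which mouse belongs to which was not given in the sources used here. If the numbers mark them, the replicate block is the fit with batch as a term.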

Additional observations from a re-analysis of the deposited data

Results flagged for a closer look

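Cold and CL were called different at 3 members when their difference was tested on the same day, in edgeR over all genes. DESeq2 called none of the 3, and the Elovl5 and Fads3 calls were lost without certain single mice, as given above. Scd2 at day 3 differed by 0.93 (log2, CL minus cold, adjusted p = 9.05e-06), with all 3 CL mice above all 3 cold mice. Elovl5 at day 3 differed by -0.44 (adjusted p = 0.0187) and Fads3 at day 1 by -0.75 (adjusted p = 0.0171), with all 3 CL mice below all 3 cold mice in each case. The Fads3 value of mouse 1 of day1CL rests on few counts. The median adipocyte nucleus held 3012.5 entries in day3CL and 3489.5 in day3C, and 1496 in day1CL and 1723 in day1C. In nuclei with at least 2000 entries the differences were 0.93 for Scd2 (adjusted p = 3.46e-06), -0.40 for Elovl5 (adjusted p = 0.0391) and -0.69 for Fads3 (adjusted p = 0.0928), so the Fads3 call was lost there.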

How the results depend on the processing

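In beige against white adipocytes 5 members were called in the main analysis and 5 to 6 when a mouse was left out, and 5 with the mouse as a block. Against day 0, 9 tests were called, 6 to 10 when a mouse was left out, 9 with the replicate block and 4 over promoter peaks only. For CL against cold, 3 tests were called, 2 to 4 when a mouse was left out, 2 with the replicate block, 1 over promoter peaks only and 0 with DESeq2. In the other clusters 0 members were called when any mouse was left out and 0 with the replicate block. Of the members' peaks, 8 were called in beige against white, 6 to 12 when a mouse was left out, 11 with the mouse as a block and 27 with no filter. With no filter, the peaks tested in both fits all had lower log2 values. The Elovl3 start went from 1.05 to 0.77 and the Elovl5 start from 0.07 to -0.24. The Scd2 start went from -0.13 to -0.41 and was then called (adjusted p = 0.0415). The 27 and the 8 therefore do not rest on the same baseline. Over the 7 groups, 12 peaks were called, 7 to 11 when a mouse was left out (7 without mouse 2 of day3CL or mouse 1 of day7CL), 7 with no filter and 4 in white nuclei only. In the fit of white nuclei fewer peaks passed the filter, and some peaks that were tested lost their call. The cause of these moves was not tested.

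No fold change of a member reversed among those called. Over the settings other than leaving out a mouse, 159 of 175 values of called results kept their side of the threshold and 16 lost it, while 4 uncalled values passed. When a mouse was left out, 342 of 357 kept it and 15 lost it, and 7 uncalled values passed, among them Elovl4 in beige adipocytes. Over all genes, DESeq2 called 9 in day1C (55.6% higher) where edgeR called 49 (30.6% higher). It called 234 in day7CL where edgeR called 1127, and leaving out mouse 3 of day1CL gave 3 calls against day 0 where all mice gave 377. Depth limits the small libraries, as in mouse 1 of day1CL.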
